A study of Mus musculus with 2 samples.

Results

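The genes described here control the step from G1 into DNA synthesis: the D cyclins Ccnd1, Ccnd2 and Ccnd3, the E cyclins Ccne1 and Ccne2, the cyclin-dependent kinases Cdk4, Cdk6 and Cdk2, and the pocket proteins Rb1 and Rbl2. They were measured in haematopoietic stem cells of Wip1 knockout mice and of wild-type mice, both 3 months of age, with 1 Affymetrix array per genotype. Wip1 is the phosphatase encoded by Ppm1d. All probe sets whose only annotated gene was one of these 10 genes were taken, which gave 28 of the 45037 probe sets in the deposited table. No source used here gives the allele behind the knockout, the sorting gate or the number and sex of the animals. Neither genotype has a replicate array, so no p-value can be given, and the genotype cannot be told apart from any other difference between the samples.

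In textbook outline, mitogens and cytokines induce the D cyclins, which activate Cdk4 and Cdk6. These kinases phosphorylate the pocket proteins, whose unphosphorylated forms hold E2F transcription factors in check, and released E2F factors then switch on the E cyclins, which activate Cdk2, and the genes of DNA replication. Haematopoietic stem cells are mostly quiescent in the adult bone marrow, and this circuit governs their exit from quiescence.

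By the brightest probe set of each gene, 0 of the 10 members differed by 1.5-fold or more in either direction, where 3.85% of all 11442 detected genes did. Of their 26 detected probe sets 0 did so, where 4.5% of all detected probe sets of named genes did. Counts of 0 among so few members lie too near these shares to be a result about the members. The median of all probe sets on an array served as its floor (25.9 for the knockout and 25.2 for the wild type). Genes above it on either array counted as detected, and all 10 members were. Differences are log2 intensity of the knockout minus the wild type after both arrays were set to the same median. The data hold a single kind of error, the scatter among probe sets that measure the same gene, with an SD of 0.22 on the log2 scale over 5084 genes. It includes no variation between animals or arrays. The brightest probe sets of Rb1 and Ccnd1 lay beyond this SD, 2 of 10 members, and 33.6% of all detected genes did so too. So did 6 of the 26 detected member probe sets, against 35.7% of all detected ones. The median difference over the members was 0.0080, against -0.0031 over all detected genes.

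Several facts about the samples bear on the comparison. Both probe sets of Ppm1d differed by less than the SD (-0.05 and 0.10), and as no source used here places them relative to the deleted part, they need not test the genotype. The 12 stem cell markers on the array were all detected, led by Hoxa9 (1773 in the knockout and 1303 in the wild type), Hlf (1270 in the knockout and 788 in the wild type) and Kit (960 in the knockout and 772 in the wild type). By the 1.5-fold rule on the brightest probe set 1 of them, Hlf, was higher and 2 were lower, Slamf1 (-0.66) and Tek (-0.60). The share of all detected genes past 1.5-fold either way was 3.85%. The 3 probe sets of Slamf1 ran from -0.66 to -0.13. Meis1 gave -0.21 by its brightest probe set and 1.82 by its other one. The neutrophil and monocyte markers Mpo (3665 in the knockout and 5498 in the wild type), S100a8 (2376 in the knockout and 2448 in the wild type) and S100a9 (2179 in the knockout and 2327 in the wild type) were also bright. That list had 3 genes past 1.5-fold higher, Csf1r (1.40), Irf8 (0.76) and Itgam (0.62), and 1 lower, Ms4a3 (-0.72). The 3 probe sets of Csf1r ran from 0.35 to 1.40. Of 9 T and natural killer cell markers on the array, 5 lay under the floor on both arrays, as did 5 of 10 stromal markers. The brightest that passed it were Nkg7 (668 in the knockout and 835 in the wild type) and the stromal marker Pdgfrb (525 in the knockout and 281 in the wild type, 0.91). The other probe set of Pdgfrb gave 0.35. Among all detected genes, 50.6% were lower in the knockout. Of 11 detected lymphoid progenitor markers 10 were higher in the knockout and 1, Pax5, held the same value on both arrays. Past 1.5-fold higher were 4 of them, Flt3, Il7r, Dntt and Blnk, by 1.13 (Blnk) to 1.32 (Il7r). The 11 summed to 9063 in the knockout and 4087 in the wild type, with 5492 and 2228 from Dntt alone. All 7 detected megakaryocyte markers were lower, with a sum of 760 in the knockout and 1118 in the wild type. Past 1.5-fold lower were 3 of them, Cavin2 (-0.79), Pf4 (-0.78) and Vwf (-0.67). Such sums add probe sets of different response and are a description only. The female-specific RNA Xist was lower in the knockout in its 3 probe sets (-0.58 to -0.86). By the brightest, Xist gave 3778 in the knockout and 6227 in the wild type. The Y-linked Eif2s3y was higher by its detected probe set (2.23), with 149 in the knockout and 31.8 in the wild type. Both RNAs were thus above the floor on each array. The part of these sample differences in the values of the G1 genes was not tested. In bulk RNA, fewer cells of a type and less RNA per cell cannot be told apart.

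**Figure D1:**
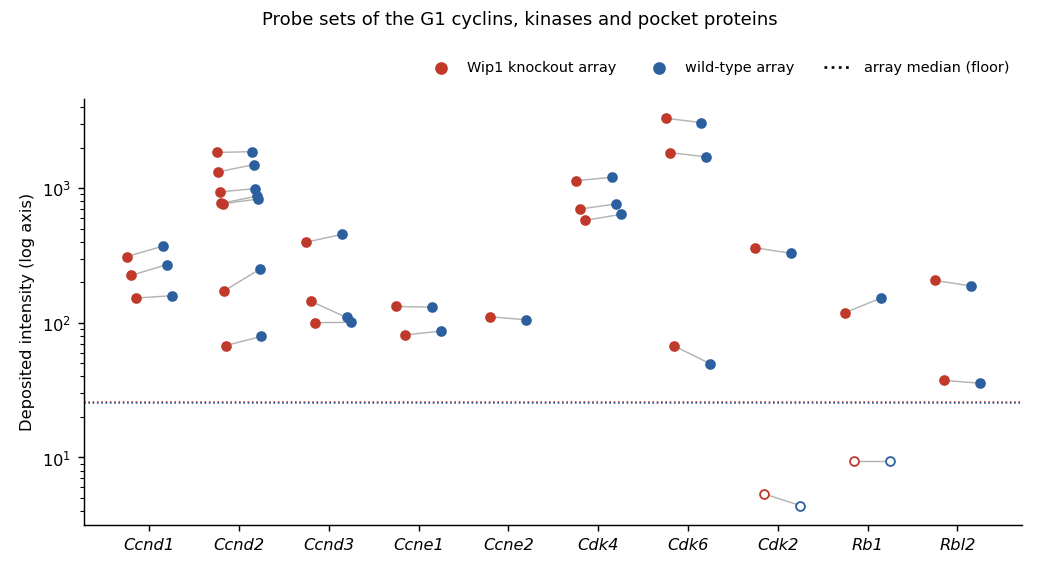
Deposited intensity (log axis) of each of the 28 probe sets of the 10 genes, with the Wip1 knockout array left (red) and the wild-type array right (blue) of each gene. Lines join the values of one probe set, open circles lie under the floor on both arrays, and dotted lines are the array medians; within Ccnd2 the probe sets span 27.2-fold in the knockout and 23.6-fold in the wild type, and within Cdk6 49.3-fold and 62.0-fold.

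Which cyclin and which kinase dominates in stem cells cannot be read from these values. Each probe set has its own response, so intensities of different probe sets give no order of transcript amounts, and the spread within single genes shows how large this limit is. For Ccnd2 the brightest detected probe set was 27.2 times the dimmest in the knockout and 23.6 times in the wild type, and for Cdk6 these ratios were 49.3 in the knockout and 62.0 in the wild type. The percentiles of the detected probe sets within their array are given as a description only. Those of Ccnd2 ran from 67.1 to 98.2 in the knockout and from 70.1 to 98.2 in the wild type, those of Ccnd1 from 79.5 to 88.2 in the knockout and from 80.0 to 89.9 in the wild type, and those of Ccnd3 from 73.1 to 90.6 in the knockout and from 73.7 to 91.7 in the wild type, so the ranges of the D cyclins overlapped on each array. This overlap came from the dim Ccnd2 probe sets 1416123_at and 1416124_at. The other Ccnd2 probe sets lay at 95.2 to 98.2 in the knockout and 95.4 to 98.2 in the wild type. Those percentiles were above all probe sets of Ccnd1 and Ccnd3. Ccne1 spanned percentiles 69.9 to 77.3 in the knockout and 71.4 to 77.5 in the wild type, a range that held the probe set of Ccne2 (74.7 in the knockout and 74.3 in the wild type). For Cdk6 the span was 66.9 to 99.1 in the knockout and 62.7 to 99.0 in the wild type, with the probe set annotated to its RefSeq mRNA at the low end, and it held all probe sets of Cdk4 (93.5 to 96.9 in the knockout and 94.0 to 97.0 in the wild type). The other Cdk6 probe sets lay above all of Cdk4, at 98.2 and 99.1 in the knockout and 98.0 and 99.0 in the wild type.

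Ccnd1, the D cyclin best known as an oncogene, was lower in the knockout in all 3 of its probe sets. It gave 311, 226 and 153 on the knockout array, against 371, 271 and 159 on the wild-type array. The log2 differences were -0.24, -0.25 and -0.05, so that 2 of the 3 lay just beyond the SD between probe sets and the last one within it. Of 1232 genes with exactly 3 detected probe sets, 25.3% were likewise lower in all of them, and 28.2% of all detected genes differed by as much as Ccnd1 did. The direction held for all 3 probe sets under each of the 9 alternative settings.

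Ccnd2, a D cyclin induced by cytokine signalling in blood cells, had 7 probe sets and all were lower in the knockout (6 of 7 after quantile normalization and after loess, and 5 of 6 with a floor at the 75th percentile), by log2 differences of -0.01 to -0.53. The brightest, 1434745_at, gave 1845 in the knockout and 1872 in the wild type, a log2 difference of -0.01, which turned to 0.05 after quantile normalization, 0.04 after loess and 0.0065 under the 75th-percentile floor. The largest difference was that of 1416123_at, with 173 in the knockout and 251 in the wild type (-0.53, 1.44-fold lower). The other 5 probe sets differed by -0.07 to -0.22, all within the SD. The median over the 7 was -0.17. Among the 36 genes with 7 or more detected probe sets, 16.7% were lower in every one. Probe sets of a gene share its transcripts, and some overlap in sequence, so their common direction counts as 1 observation of 1 pair of samples.

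Ccnd3, the D cyclin with a known role in lymphocyte precursors, did not show a single direction. The probe set annotated to its RefSeq mRNA, which was also the brightest, gave 398 in the knockout and 455 in the wild type (-0.18). The others are annotated to different GenBank entries, and gave 145 in the knockout against 110 in the wild type (0.41) and 100.4 against 100.9 (0.0018 after centring). The SD over these 3 probe sets was 0.30, larger than any D cyclin difference by the brightest probe set.

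The E cyclins were close to equal on the arrays. Ccne1, which together with Ccne2 activates Cdk2 at the start of S phase, gave 132 in the knockout and 131 in the wild type by its brighter probe set, and 81.5 against 86.8 by the other one. Its differences of 0.03 and -0.08 had opposite signs and were both within the SD. The brighter probe set is of the _x_at class, which can bind related transcripts, and only the other is annotated to the RefSeq mRNA. Ccne2 had 1 probe set, with 111 in the knockout and 105 in the wild type (0.08). Of all detected genes, 89.7% differed by at least as much as Ccne1 and 69.7% by at least as much as Ccne2.

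**Figure D2:**
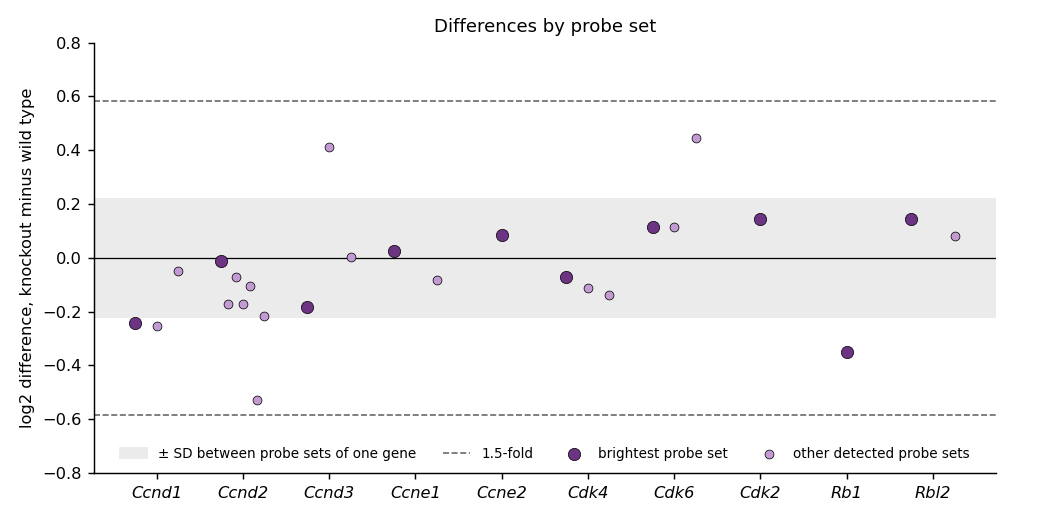
The log2 difference, Wip1 knockout minus wild type, of the 26 detected probe sets by gene, with the brightest probe set of each gene drawn larger. The grey band is ± the SD between probe sets of one gene (0.22) and the dashed lines mark 1.5-fold; no probe set crosses them, and 6 of 26 lie outside the band.

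The partner kinases of the D cyclins differed in opposite directions, both by less than the SD by their brightest probe sets, except that the brightest of Cdk4 showed no direction after quantile normalization (7.6e-06). Cdk4 was lower in the knockout in its 3 probe sets, with 1139, 702 and 577 on the knockout array, against 1206, 764 and 639 on the wild-type array. The differences were -0.07, -0.11 and -0.14, and the first came from a probe set of the _x_at class, which can bind related transcripts. Cdk6 was higher in its 3 probe sets, with 3311, 1841 and 67.1 on the knockout array, against 3076, 1713 and 49.6 on the wild-type array. Its differences were 0.12, 0.11 and 0.45, and the first 2 come from probe sets annotated to the same GenBank entry. The dim probe set with the difference of 0.45 is the only one annotated to the RefSeq mRNA. Among genes with exactly 3 detected probe sets, 22.6% were higher in all of them.

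Cdk2, the partner of the E cyclins, gave 361 in the knockout and 329 in the wild type by its detected probe set (0.15), and 51.0% of detected genes differed by at least as much. Its other probe set was under the floor on both arrays (5.36 in the knockout and 4.39 in the wild type) and gives no difference.

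The upstream sequences of these kinases are shown because Cdk4 is a textbook target of Myc, which binds the E-box CACGTG, and because genes of this circuit are known E2F targets. RefSeq promoters (GRCm38.p6) matched 6 of the 10 members, namely Ccnd3, Ccne1, Cdk2, Cdk4, Cdk6 and Rbl2. The 250 bases before the annotated start were searched on both strands for CACGTG and for TTTCCCGC, TTTGGCGC, TTTCGCGC or TTTGCCGC, which spell the E2F consensus. Capitals mark the matches. The Cdk4 sequence is chr10:127063285-127063534, plus strand, with 4 E-boxes; the Cdk6 sequence is chr5:3343643-3343892, plus strand, with 1 E-box; the Cdk2 sequence is chr10:128705052-128705301, minus strand, with 1 match to the reverse complement of TTTCCCGC.
Cdk4: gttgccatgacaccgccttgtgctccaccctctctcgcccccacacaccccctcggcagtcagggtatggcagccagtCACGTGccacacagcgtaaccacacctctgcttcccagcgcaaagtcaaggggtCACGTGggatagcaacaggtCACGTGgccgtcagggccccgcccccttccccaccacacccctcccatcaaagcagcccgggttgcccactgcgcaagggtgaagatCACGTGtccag
Cdk6: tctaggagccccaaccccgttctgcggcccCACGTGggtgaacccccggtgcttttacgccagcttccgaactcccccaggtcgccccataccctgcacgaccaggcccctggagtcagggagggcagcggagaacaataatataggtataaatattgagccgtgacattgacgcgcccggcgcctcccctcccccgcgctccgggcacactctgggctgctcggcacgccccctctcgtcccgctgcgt
Cdk2: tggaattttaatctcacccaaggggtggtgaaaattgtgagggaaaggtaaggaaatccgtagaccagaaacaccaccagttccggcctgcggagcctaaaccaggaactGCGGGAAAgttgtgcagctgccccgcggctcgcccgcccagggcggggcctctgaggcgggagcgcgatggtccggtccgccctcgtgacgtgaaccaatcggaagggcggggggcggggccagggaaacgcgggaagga
Of 32851 RefSeq promoter windows of this length, 6.02% held at least 1 CACGTG and 7 held 4 or more, and 1.86% held at least 1 of the E2F spellings. The E-boxes of Cdk4 began 172, 118, 98 and 11 bases before the start. Neither motif was found in the windows of Ccnd3, Ccne1 and Rbl2. On the arrays Myc was 789 in the knockout and 573 in the wild type (0.47, by 1 probe set). The differences were -0.07 to -0.14 for Cdk4 and 0.11 to 0.45 for Cdk6, and a relation to Myc was not tested. A match in these letters is a description and does not show that a factor bound there.

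Of the pocket proteins, Rb1, the retinoblastoma tumour suppressor, had the largest difference of any member by the brightest probe set. It gave 119 in the knockout and 153 in the wild type, a log2 difference of -0.35 (1.28-fold lower). This rested on a single detected probe set, since the other was under the floor, with an identical value of 9.34 on both. Under the 9 alternative settings the Rb1 difference stayed between -0.36 and -0.29. Of all detected genes 14.1% differed by at least as much, and of the 4608 genes within 2-fold of its mean intensity 15.4% did. Rbl2, the pocket protein p130 that pairs with repressive E2F factors in quiescent cells, was 207 in the knockout and 188 in the wild type by its brighter probe set and 37.4 against 35.6 by the other one. These gave 0.14 and 0.08, both within the SD, and 28.3% of genes with exactly 2 detected probe sets were higher in both.

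**Figure D3:**
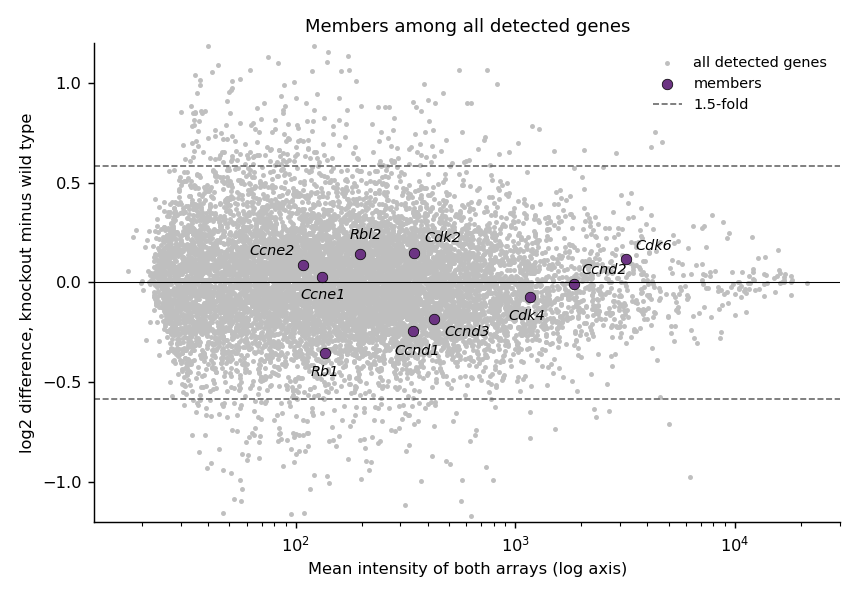
Each point is a detected gene by its brightest probe set, with mean intensity of both arrays on the x axis (log axis) and the log2 difference, Wip1 knockout minus wild type, on the y axis; 44 genes lie beyond ±1.2 and are not drawn. The 10 labelled members lie inside the 1.5-fold lines (dashed), with Rb1 the lowest at -0.35 and Cdk2 the highest at 0.15.

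The rest of the circuit was compared through 8 lists. Over all of them, 106 of 110 genes on the array besides the members were detected, and 0 of these differed by 1.5-fold or more by their brightest probe set, against 3.85% of all detected genes. By that probe set their differences ran from -0.47 to 0.57. By other detected probe sets Ccnc (up to 0.88), Cdk9 (0.72), Gsk3b (0.70) and Ccnl2 (0.63) were past 1.5-fold higher, and no gene was past it lower. Of all detected probe sets of named genes 4.5% were past it either way. Of the E2F and DP factors, only some of which the pocket proteins bind, 8 of 10 were lower in the knockout, with a median of -0.19. Of all detected genes 50.6% were lower. By the median of probe sets 7 of 10 were lower and the list's median was -0.07, and it was -0.06 without _s_at, _x_at and _a_at probe sets. The members that differed most were the repressors E2f7 (119 in the knockout and 162 in the wild type, -0.44), E2f6 (216 in the knockout and 282 in the wild type, -0.37) and E2f8 (335 in the knockout and 417 in the wild type, -0.31). Both probe sets of E2f6 were lower, while E2f7 and E2f8 rested on 1 each.

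E2F-regulated genes of replication lay mostly below 0, each by a small amount. Of 22 detected genes 20 were lower in the knockout, where 50.6% of all detected genes were, with a median of -0.14. After quantile normalization and after loess 19 of 22 were lower. Those that differed most were the uracil glycosylase gene Ung (253 in the knockout and 327 in the wild type, -0.36), the origin licensing gene Cdc6 (227 in the knockout and 284 in the wild type, -0.31) and the polymerase alpha gene Pola1 (634 in the knockout and 782 in the wild type, -0.29), each by 1 probe set. Their differences and that of Rb1 are values from the same pair of arrays and carry no test of a relation.

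Among the inhibitors of the cyclin-dependent kinases, 4 of 5 detected genes were lower, where 50.6% of all detected genes were, with a median of -0.27. Cdkn2a and Cdkn2b lay under the floor on both arrays. Cdkn1a, which encodes p21, was 2480 in the knockout and 3207 in the wild type (-0.36), with -0.58 in its other probe set. Cdkn2c was 282 in the knockout and 349 in the wild type (-0.30), and Cdkn2d was 442 in the knockout and 538 in the wild type (-0.27). Cdkn2c and Cdkn2d encode inhibitors of the INK4 family, which binds Cdk4 and Cdk6. The inhibitor that was higher, Cdkn1b, which encodes p27, was 347 in the knockout and 329 in the wild type (0.08), with 0.47 in its other probe set.

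Pocket protein and DREAM complex partners had 6 genes higher and 6 lower, with a median of 0.02. Arid4a, an Rb-binding protein gene (0.27), and the DREAM subunit genes Lin52 (0.25) and Lin54 (0.22) differed most, and the second probe set of Lin54 gave -0.22. Of the kinases and phosphatases that set CDK activity, 6 of 9 were lower, where 50.6% of all detected genes were, with a median of -0.06. The CDK-activating kinase gene Cdk7 differed by 0.20, its assembly factor gene Mnat1 by -0.23 and the inhibitory kinase gene Wee1 by -0.23. Ligases and kinases of cyclin turnover had 7 genes higher, 5 lower and 1, Fbxw7, with the same value on both arrays, with a median of 0.02, and Cul4a differed most (-0.32), followed by Fbxo4 (-0.21, with 0.16 in its other probe set) and Gsk3a (0.12).

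**Figure D4:**
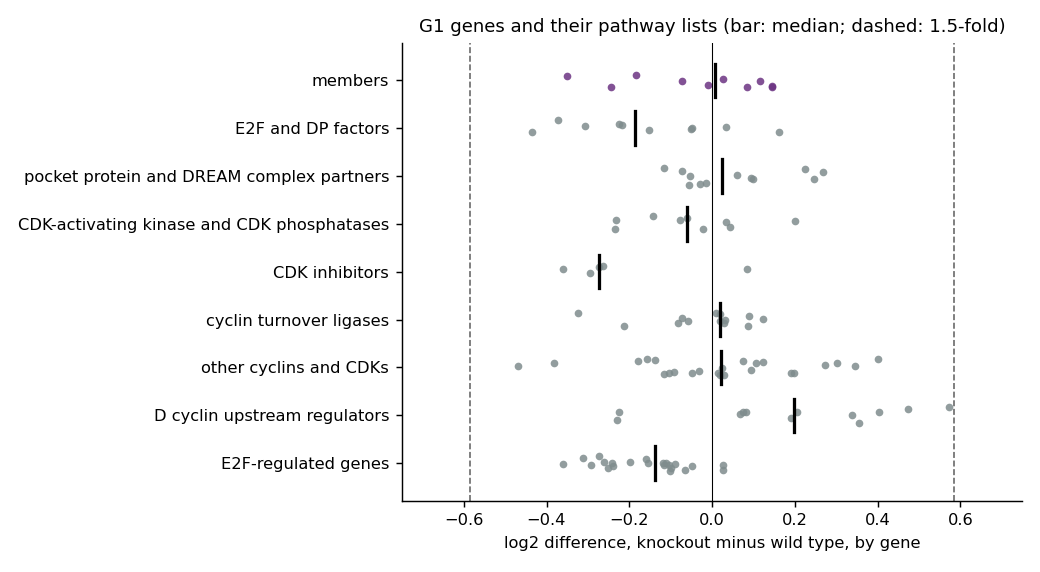
Log2 difference, Wip1 knockout minus wild type, of each detected gene by its brightest probe set, for the 10 members (purple) and 8 lists of the same circuit (grey). Bars are medians and dashed lines mark 1.5-fold; the E2F-regulated genes lie below 0 with 20 of 22 genes, and no gene of any list crosses the dashed lines.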

How the data were processed

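Total RNA was labelled with Cy3 and hybridised to Affymetrix arrays, per the labels' protocols. The authors deposited a linear intensity value for every probe set on each array. The submitters' processing notes list MAS5 and give no version or scaling between the arrays. A total of 2535 probe sets (5.63%) held the same value on both arrays, among them 1 member probe set, so how the values were made is not settled.

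Probe sets were named through the platform annotation: 34945 had 1 gene, 932 several and 9160 were not listed. Symbols were updated through the RefSeq gene table for the 34741 that matched. Intensities were set to at least each array's median, converted to log2 and centred, which removed a shift of -0.01. The brightest probe set by mean represented a gene. The precision is limited by the number of arrays. The method was tested on simulated data with 200 changed genes. These were all bright and changed by more than any member differed, so the test does not cover differences of the members' size. Python 3.11.15, numpy 2.4.6, pandas 2.3.3 and statsmodels 0.14.6 were used. Members, lists and alternatives were chosen with earlier results of these data known. A value identical on both arrays, or a difference whose sign came only from the floor, was counted neither as higher nor as lower. Named were all members and the 3 genes of each circuit list with the largest difference. The 3 brightest were named of the stem cell list and of the neutrophil and monocyte list. Of the lymphoid and megakaryocyte lists, the genes past 1.5-fold were named. Only the brightest was named of the T and natural killer cell and stromal lists, and no erythroid marker was. Other listed genes, such as further markers and Cdkn1b, were chosen after their values were seen. Erythroid markers had 3 genes higher and 5 lower (median -0.11), where 50.6% of all detected genes were lower. Neutrophil and monocyte markers had 5 higher and 8 lower (-0.05), stem cell markers 5 and 6 (-0.04), stromal markers 4 and 0 (0.14), and T and natural killer cell markers 1 and 3 (-0.20).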

Additional observations from a re-analysis of the deposited data

How the results depend on the processing

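Alternatives were no centring, quantile and loess normalization, other floors or none, the floor as an offset, the median of probe sets, and leaving out _s_at, _x_at and _a_at probe sets. At a smaller size of 0.32 on the log2 scale, 1 member was lower (Rb1) and 0 were higher, where 7.95% and 9.30% of detected genes were. At 1.5-fold, and at 2-fold, the counts were 0 and 0 under each alternative run. The Ccnd1 difference ranged from -0.25 to -0.21 and that of Cdk6 from 0.11 to 0.17. The signs of some members were not stable. Ccnd2 ranged from -0.17 to 0.05, Ccnd3 from -0.19 to 0.0018, Ccne1 from -0.08 to 0.04 and the median over members from -0.11 to 0.03. With a floor at the 75th percentile Ccne2 gave no value, and without the probe set classes Cdk2 and Rbl2 gave none. The median of E2F-regulated genes ranged from -0.20 to -0.11, and that of E2F and DP factors from -0.20 to -0.06. No paired analysis was possible because there is 1 array per genotype, and no replicate could be left out. Dim probe sets, such as those of Rb1 and Cdk2 under the floor, limit what can be said of their transcripts.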

Other observations

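Outside the G1 step, other cyclins and cyclin-dependent kinases had 14 genes higher and 10 lower in the knockout among 24 detected, with a median of 0.02. Ccng1, a cyclin gene known as a p53 target, was 494 in the knockout and 689 in the wild type (-0.47), and its 3 probe sets ran from -0.57 to -0.47. Ccnl2, a cyclin gene linked to splicing, was 714 in the knockout and 545 in the wild type (0.40), with 0.40 to 0.63 over 3 probe sets. Ccnc, the Mediator cyclin gene, had probe sets of opposite sign, -0.38 in the brighter (71.7 in the knockout and 94.0 in the wild type) and 0.88 in the dimmer one.

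Of genes that act upstream of the D cyclins 10 of 12 were higher, with a median of 0.20, although 8 of 12 were by the median of probe sets. Of all detected genes 50.6% were lower. The list does not separate activators from repressors of the D cyclins. Mycn was 176 in the knockout and 119 in the wild type (0.57, with the same value on both arrays in its other probe set), Myc differed by 0.47, and the repressor gene Gfi1 was 199 in the knockout and 151 in the wild type (0.40).

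Many deposited values share their decimals. On both arrays, 1590 probe sets (3.53%) left a remainder of 0.158 on division by 0.5. These include the named probe sets of E2f7, E2f8, Cdkn1a, Cdkn2c, Cul4a, Gfi1 and Dntt, and 0 of the member probe sets. Why these values differ between the arrays by multiples of 0.5 was not tested.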
